A study of Mus musculus with 6 samples.

Results

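The 47 protein-coding genes of the mouse proteasome and of its assembly factors were followed in LβT2 cells, an immortalized mouse gonadotrope cell line. Genes were taken by symbol from the 47069 genes of the count table, as all that begin with Psm, a letter from a to g and a number, and the interferon-inducible *Psmb8* and *Psmb9* were left out. Both groups consisted of cells at passage 14 that were treated with 2 nM gonadotropin-releasing hormone (GnRH) over 40 min, and no untreated library was compared. The 3 Fresh libraries came from cells lysed right after harvest, and the 3 RNA-Best libraries from cells stored in the RNA-Best reagent at 4°C over 4 days or more before lysis. A cell line that carries an oncogene stands in here for the gonadotrope, and whether separate cultures stand behind the libraries is not given in the sources used here, so that the p-values may measure a technical spread only.

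The 26S proteasome is the protease that degrades proteins tagged with ubiquitin. Its 20S core is a barrel of stacked rings, the outer ones of alpha subunits and the inner ones of beta subunits, and some of the beta subunits carry the proteolytic sites inside the barrel. The 19S particle caps the barrel, with a base of ATPases that unfold the substrate and a lid that removes the ubiquitin chain. Other caps, such as the PA28 rings and PA200, replace or accompany it, and dedicated chaperones assemble the core and the base. In secretory cells such as gonadotropes the proteasome also takes up misfolded proteins that leave the endoplasmic reticulum.

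Of the 47 genes, 45 passed the filter on low counts, and the remaining genes were *Psma8* and *Psmb11*. Depth ran from 4909418 to 47438746 counts a library and was higher in all Fresh than in all RNA-Best libraries. A count of 0 allows a level of up to 0.0632 CPM (counts scaled to a library total of 1000000) at the greatest depth and 0.611 CPM at the smallest (3 counts, for counting error only). Of 6 gonadotrope markers, all passed the filter, and several moved as much as the proteasome genes did. *Cga*, the shared subunit of the gonadotropins, fell from 1822 to 1419 CPM (log2 fold change -0.36), the factors *Nr5a1* and *Pitx1* fell by 13.7% and 14.1%, the GnRH receptor gene *Gnrhr* rose from 119.6 to 163 CPM (log2 fold change 0.43), and *Lhb* did not pass the test. Of 8 markers of other cell types, *Gh*, *Prl*, *Pomc*, *Ptprc*, *Col1a1* and *Gfap* did not pass the filter. *Tshb* had 0.914 CPM in Fresh and 1.63 CPM in RNA-Best and passed as higher (log2 fold change 0.91, edgeR adjusted p = 0.0035). That call rested on 20, 6 and 17 counts in the RNA-Best libraries. *Pecam1* had 42.6 and 38.7 CPM and passed as lower (log2 fold change -0.15, edgeR adjusted p = 0.0150). The part of these marker changes in the results was not tested, and in bulk RNA fewer cells of a type and less RNA per cell cannot be told apart.

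Transcripts of the proteasome were lower in RNA-Best libraries as a group. The 47 genes together took 7167, 7097 and 7281 CPM in the Fresh libraries and 6062, 6035 and 6216 CPM in the RNA-Best libraries, so that the groups did not overlap. The means were 7182 ± 92.8 CPM and 6105 ± 97.9 CPM (SD, n = 3), a ratio of 0.850. Of the 45 tested genes, 41 were lower and 2 higher in RNA-Best at an adjusted p under 0.05, by the quasi-likelihood test of edgeR, and 2 did not pass. Among all 14736 tested genes 50.8% passed, of which the lower ones made up 24.8% of the tested genes and the higher ones 26.0%. The counts by role given further on stand against the same shares. In 40 of the proteasome genes every RNA-Best value lay below every Fresh value, against 29.0% of all tested genes, and in 2 above it, against 29.0%. The changes were small, with a median log2 fold change of -0.23 and a range from -0.44 to 0.19, while the median over all tested genes was -0.01. The coefficient of variation among the 3 libraries of a group had a median of 2.15% over these genes in Fresh and 3.63% in RNA-Best. Exonic bases are shared with another gene in 12 of the 47, *Psma4*, *Psma5*, *Psmb5*, *Psmb7*, *Psmc3*, *Psmd1*, *Psmd3*, *Psmd9*, *Psmd13*, *Psme1*, *Psme2b* and *Psmg3*, and their values are uncertain to that extent.

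**Figure D1:**
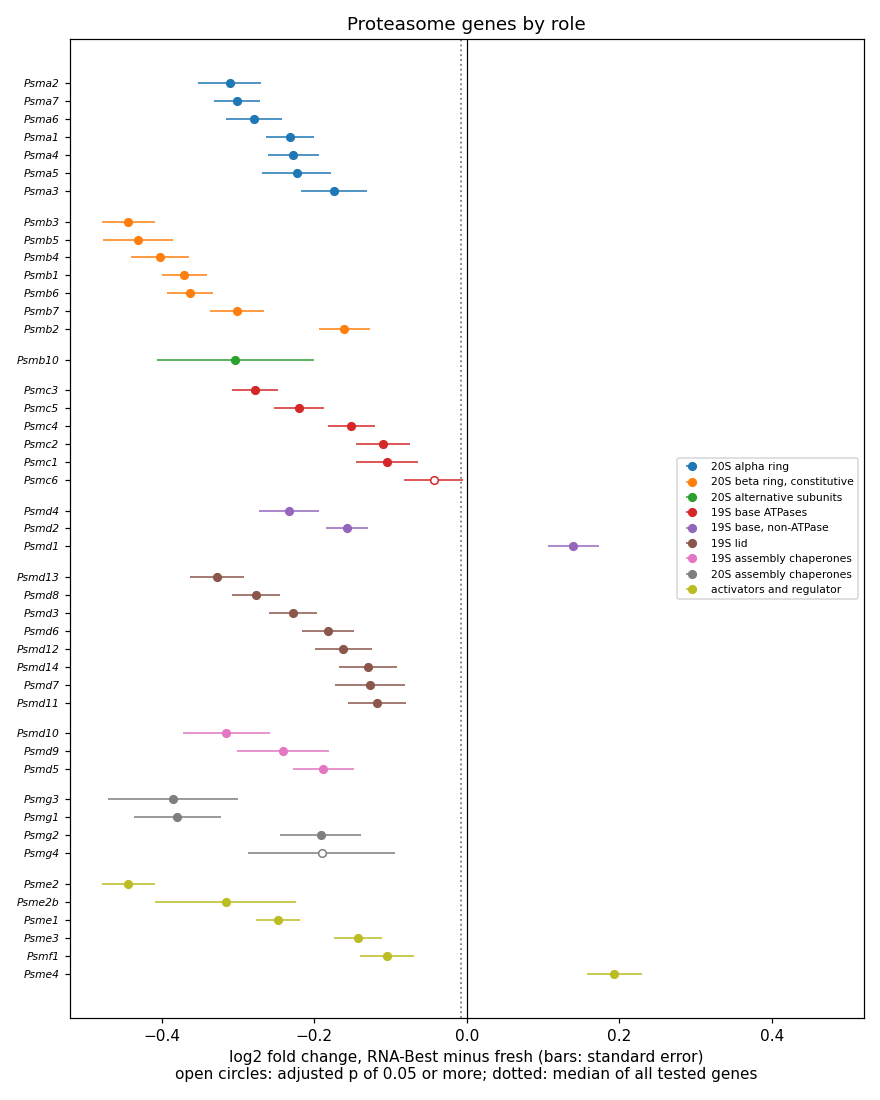
Log2 fold change of each of the 45 tested proteasome genes, RNA-Best minus Fresh, on the x axis, with 1 row a gene and colours for the role. Bars are standard errors, filled circles have an adjusted p under 0.05 and the dotted line is the median of all tested genes (-0.01). All points but *Psmd1* and *Psme4* lie left of 0, and the beta ring reaches farthest at -0.44.

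The size of the change was put to a stricter test, in which a gene had to differ by more than 1.2-fold (edgeR's glmTreat). It was passed by 6 proteasome genes, all lower in RNA-Best, where 2.82% of all tested genes were lower and 8.67% higher by this rule, 11.5% in all. The genes were *Psmb1*, *Psmb3*, *Psmb4*, *Psmb5*, *Psmb6* and *Psme2*. All but *Psme2*, a subunit of the PA28 cap, encode constitutive subunits of the beta ring.

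The promoters of these genes were read for shared letters, and a link of promoters to the fall was not tested. RefSeq windows from 250 bases before to 50 bases after the gene start, on GRCm38.p6, were found for 39 of the 47 genes. For each of 11 motifs, chosen after the fold changes were seen, both strands were searched, and the share of the 39 genes is set beside that of all 27025 genes with a window and of the 10087 tested ones among them. CCGGAA, the core bound by ETS factors, was in 20 of the proteasome genes (51.3%), in 16.7% of all genes and in 31.3% of the tested ones. Of these 20 genes, 18 were lower and 1 higher in RNA-Best, among genes that were mostly lower with or without it. The palindromic element of nuclear respiratory factor was in 7 proteasome genes (17.9%), 5.19% of all and 11.6% of tested genes. TGACNNNGC, the core of the antioxidant response element through which Nfe2l1 is known to act on proteasome genes, was in 6 (15.4%), 14.0% and 17.3%. Its relative TGANNNAGC was in 9 (23.1%), 16.6% and 15.1%, and matches of both shared bases in *Psmb6*, *Psmc6* and *Psmd12*. The CCAAT box was in 13 (33.3%), 41.1% and 43.1%, and the GC box GGGCGG in 22 (56.4%), 38.2% and 69.4%. TATAAA was in 3, CACGTG in 4, AAGATGGC and GCATGCGC in 3 each and the cyclic AMP element TGACGTCA in 0, where tested genes held them in 8.16%, 11.5%, 5.37%, 6.15% and 3.66%. GCATGCGC, a shorter form of the nuclear respiratory factor element, shared bases with it in *Psma2* and *Psmg1*, and GGGCGG did so with TGACNNNGC in *Psmd9* and with CCGGAA in *Psme4*. These matches are letters in a window and not binding sites.

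Windows of 4 genes with CCGGAA are shown because their fold changes differ. *Psmb4* and *Psmd13* are among the genes that fell most in their roles, *Psmc6* did not pass the test and *Psme4* was higher in RNA-Best. Capitals mark CCGGAA on either strand.
Psmb4 (chr3:94886909-94887208, minus strand): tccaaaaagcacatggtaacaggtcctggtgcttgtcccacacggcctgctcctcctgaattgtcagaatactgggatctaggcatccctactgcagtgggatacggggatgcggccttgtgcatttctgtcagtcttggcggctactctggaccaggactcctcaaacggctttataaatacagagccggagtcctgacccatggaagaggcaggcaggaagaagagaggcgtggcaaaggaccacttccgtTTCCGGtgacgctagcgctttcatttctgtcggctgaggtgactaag
Psmd13 (chr7:140882144-140882443, plus strand): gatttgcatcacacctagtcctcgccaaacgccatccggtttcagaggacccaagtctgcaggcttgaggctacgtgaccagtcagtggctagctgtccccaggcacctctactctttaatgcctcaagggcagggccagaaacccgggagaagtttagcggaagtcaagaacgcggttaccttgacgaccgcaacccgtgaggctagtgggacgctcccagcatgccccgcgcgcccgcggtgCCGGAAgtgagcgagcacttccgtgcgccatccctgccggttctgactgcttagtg
Psmc6 (chr14:45329574-45329873, plus strand): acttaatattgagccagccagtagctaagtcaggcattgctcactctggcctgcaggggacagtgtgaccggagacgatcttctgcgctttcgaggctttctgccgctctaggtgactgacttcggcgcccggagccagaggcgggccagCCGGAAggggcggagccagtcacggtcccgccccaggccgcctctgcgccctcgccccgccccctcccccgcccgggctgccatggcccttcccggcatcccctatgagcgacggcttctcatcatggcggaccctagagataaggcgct
Psme4 (chr11:30771525-30771824, plus strand): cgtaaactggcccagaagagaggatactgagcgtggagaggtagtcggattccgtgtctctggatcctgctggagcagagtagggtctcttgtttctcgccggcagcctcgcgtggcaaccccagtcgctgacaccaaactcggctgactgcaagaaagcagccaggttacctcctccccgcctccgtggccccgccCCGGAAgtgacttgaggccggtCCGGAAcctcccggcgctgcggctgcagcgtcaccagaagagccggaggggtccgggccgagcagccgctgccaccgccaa
The core lies 6 bases before the start in *Psmd13* and 100 bases before it in *Psmc6*, and *Psme4* has it at 53 and 31 bases before the start. In *Psmb4* it begins a few bases after the start.
The windows of *Psmb5* and *Psmb6*, which encode proteolytic subunits, are shown with TGACNNNGC on either strand in capitals.
Psmb5 (chr14:54617946-54618245, minus strand): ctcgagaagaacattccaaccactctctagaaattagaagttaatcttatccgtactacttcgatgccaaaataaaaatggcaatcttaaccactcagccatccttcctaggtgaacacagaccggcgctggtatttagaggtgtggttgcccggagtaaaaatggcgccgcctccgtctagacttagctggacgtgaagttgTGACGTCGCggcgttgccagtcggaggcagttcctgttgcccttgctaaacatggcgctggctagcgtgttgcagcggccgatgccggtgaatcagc
Psmb6 (chr11:70525107-70525406, plus strand): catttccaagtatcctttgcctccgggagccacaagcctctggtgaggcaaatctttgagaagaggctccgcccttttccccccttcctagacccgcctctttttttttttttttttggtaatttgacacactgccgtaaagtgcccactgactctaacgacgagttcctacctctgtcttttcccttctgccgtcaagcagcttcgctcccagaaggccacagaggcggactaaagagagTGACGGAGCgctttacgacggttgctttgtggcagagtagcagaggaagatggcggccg
The letters begin 47 bases before the start of *Psmb5* and 9 bases before that of *Psmb6*.

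All 7 genes of the alpha ring, which gates the entry to the core, fell in RNA-Best, with a median log2 fold change of -0.23. Their summed level was 1238 ± 23.9 CPM in Fresh and 1029 ± 22.4 CPM in RNA-Best (SD, n = 3). The change was largest in *Psma2*, on chromosome 13 from 14613240 to 14674236 of GRCm38. This gene had 114, 114 and 118 CPM in the Fresh libraries and 84.3, 96.0 and 97.5 CPM in the RNA-Best libraries. RNA-Best 1 was the lowest, and the groups did not overlap. Its log2 fold change was -0.31 (standard error, SE, 0.04, edgeR adjusted p = 1.07e-07). *Psma7*, the most abundant gene of the ring by counts, had 439, 423 and 439 CPM in Fresh and 344, 341 and 365 CPM in RNA-Best, a log2 fold change of -0.30 (SE 0.03, edgeR adjusted p = 1.92e-10). The smallest change was that of *Psma3*, with 82.7, 83.5 and 88.9 CPM against 71.2, 76.5 and 76.8 CPM and a log2 fold change of -0.17 (edgeR adjusted p = 9.33e-04). Every RNA-Best library lay below every Fresh library in these genes as well. *Psma1*, *Psma4*, *Psma5* and *Psma6* lay between -0.28 and -0.22.

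All 7 genes of the constitutive beta ring fell, with a median log2 fold change of -0.37. That median lay below the one of the alpha ring, and the difference between the rings was not tested. Its summed level was 1444, 1422 and 1464 CPM in the Fresh libraries and 1117, 1113 and 1141 CPM in the RNA-Best libraries. *Psmb3*, a beta subunit without a proteolytic site, is on chromosome 11 from 97703399 to 97713500. It had 178, 178 and 189 CPM in Fresh and 134, 133 and 131 CPM in RNA-Best libraries. The RNA-Best libraries were close to each other and far below the Fresh ones, and the level fell by 26.5% (log2 fold change -0.44, SE 0.03, edgeR adjusted p = 6.17e-13). *Psmb1* and *Psmb4*, of the same kind, had log2 fold changes of -0.37 and -0.40 (edgeR adjusted p = 7.97e-13 and 7.51e-11). *Psmb2* was the exception within the ring. Its level was 153, 153 and 151 CPM in Fresh and 133, 142 and 136 CPM in RNA-Best, without overlap, and its log2 fold change was -0.16 (SE 0.03, edgeR adjusted p = 1.43e-04). With the offset for exonic length it came to -0.04 and did not pass.

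The 3 proteolytic subunits of the standard core fell as well. *Psmb5*, which carries the chymotrypsin-like site that proteasome inhibitors used in the clinic block, lies on chromosome 14 from 54614119 to 54618022. In the Fresh libraries it had 119, 111 and 125 CPM and in the RNA-Best libraries 86.1, 79.2 and 91.6 CPM. The Fresh libraries varied more here than in most genes, yet the lowest of them exceeded the highest RNA-Best library, and the level fell by 25.8% (log2 fold change -0.43, SE 0.05, edgeR adjusted p = 8.46e-10). *Psmb6*, the caspase-like subunit on chromosome 11 from 70525367 to 70527858, had 279, 278 and 278 CPM in Fresh and 214, 223 and 215 CPM in RNA-Best. The Fresh values were almost equal, and the log2 fold change was -0.36 (SE 0.03, edgeR adjusted p = 2.58e-12). For *Psmb7*, the trypsin-like subunit on chromosome 2 from 38588036 to 38644087, the values were 161, 152 and 154 CPM and 124, 130.0 and 127 CPM, a log2 fold change of -0.30 (SE 0.04, edgeR adjusted p = 7.11e-09). Part of its exons, 405 bases, is shared with *Nek6* on the opposite strand.

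**Figure D2:**
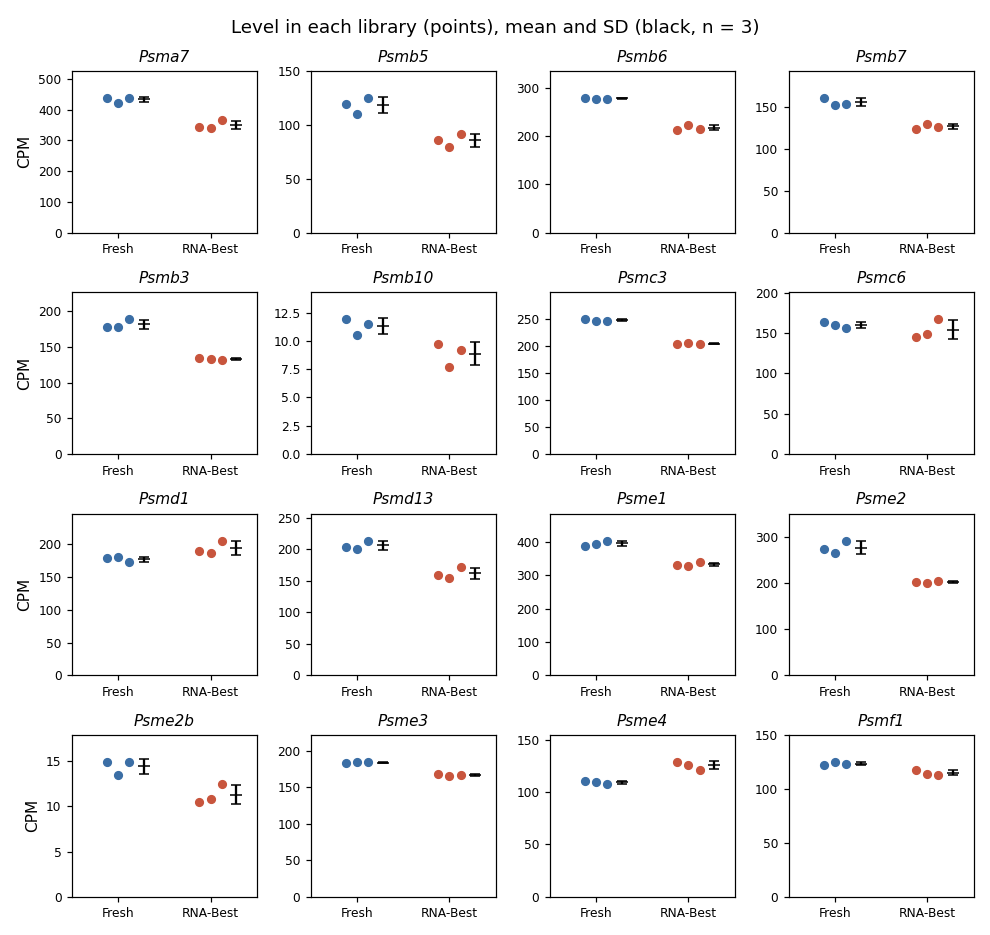
CPM on the y axis of 16 proteasome genes in the 3 Fresh (blue) and 3 RNA-Best (red) libraries, each point a library, with the mean and SD in black. The y axes start at 0 and differ between panels. RNA-Best values lie below Fresh values in *Psmb3* and *Psmb5*, overlap with them in *Psmc6*, and lie above them in *Psmd1* and *Psme4*.

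Of the alternative subunits of the core in the set, *Psmb10* was low and *Psma8* and *Psmb11* were near 0. *Psmb10*, the interferon-inducible relative of *Psmb7*, had 11.9, 10.5 and 11.5 CPM in Fresh and 9.73, 7.72 and 9.21 CPM in RNA-Best, with -0.30 as its log2 fold change (SE 0.10, edgeR adjusted p = 0.0135). This call rested on few counts, since the RNA-Best libraries held 86, 38 and 111, and it was lost without Fresh replicate 1, RNA-Best replicate 2 or RNA-Best replicate 3, with log2 fold changes of -0.25, -0.25 and -0.32. Per kilobase of exon its Fresh level was 6.64 ± 0.426 CPM (SD, n = 3), against 45.5 ± 1.38 CPM for *Psmb7*. *Psmb8* and *Psmb9*, the other inducible subunits, which replace *Psmb5* and *Psmb6*, were at 47.7 ± 1.60 and 35.1 ± 1.66 CPM per kilobase in Fresh libraries, where those counterparts were at 132 ± 8.18 and 149 ± 0.556. Per kilobase of the longest transcript the mean levels were 84.5 and 44.5 CPM against 132 and 288 CPM. Both inducible genes fell by 17.2% and 25.7% in RNA-Best. *Psma8*, the testis relative of *Psma7*, had 1 count in Fresh 3 and 0 in the other libraries. *Psmb11*, the thymus relative of *Psmb5*, lies near *Psmb5* on chromosome 14 and had between 0 and 2 counts a library. At this depth both were at or under the level that a count of 0 allows.

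The subunits of the core are present in equal numbers in the particle, but their transcripts were not equally abundant. Per kilobase of exon, the 14 constitutive core genes ranged in Fresh 1 from 21.2 CPM for *Psma3* to 149 CPM for *Psmb6*, a ratio of 7.03. The coefficient of variation over the 14 genes was 47.8%, 47.3% and 47.3% in the Fresh libraries and 46.8%, 47.7% and 47.1% in the RNA-Best libraries. The groups overlapped in this value. *Psma3* was lowest in all 6 libraries, and *Psmb6* was highest in all but RNA-Best 3, where *Psma7* was. Level and rank depend on the length that is used. With the longest annotated transcript, *Psma7* was highest in Fresh 1, Fresh 3, RNA-Best 1 and RNA-Best 3, *Psmb6* in Fresh 2 and RNA-Best 2, and *Psma3* lowest in all 6. With that length in place of all exons, the mean coefficient of variation was 57.8% in Fresh and 58.0% in RNA-Best, against 47.5% and 47.2%.

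**Figure D3:**
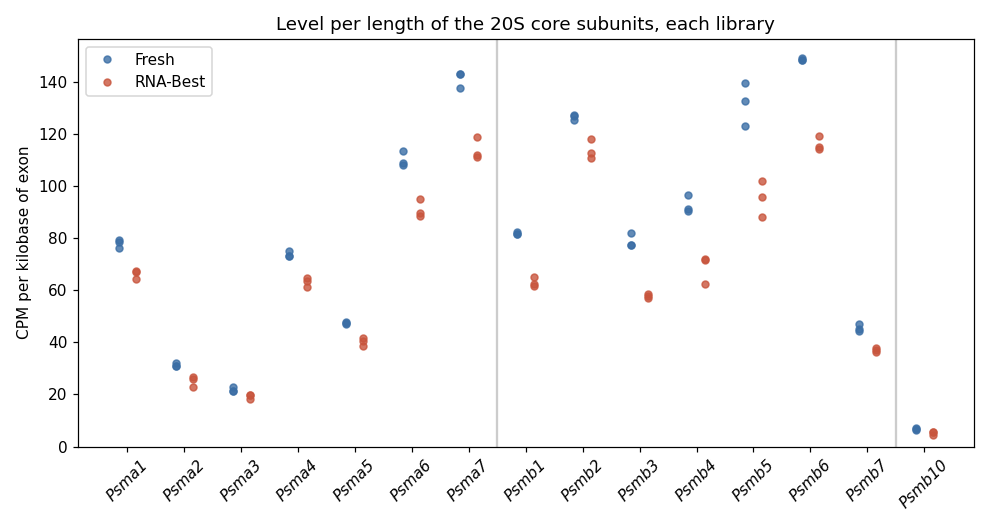
CPM per kilobase of exon on the y axis for the 14 constitutive subunits of the core and *Psmb10*, in each Fresh (blue) and RNA-Best (red) library. Levels differ more between genes than between groups, from 21.8 ± 0.872 CPM per kilobase in *Psma3* to 149 ± 0.556 in *Psmb6* (Fresh, SD, n = 3), and *Psmb10* lies at 6.64 ± 0.426.

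Of the 6 ATPases of the base, which pull the substrate into the core, 5 fell, with a median log2 fold change over all 6 of -0.13. The call of *Psmc1* did not hold with every single library left out. With the offset for exonic length 3 fell, where 25.2% of all tested genes were lower and 15.6% higher. *Psmc3* had the largest change, with 249, 247 and 246 CPM in Fresh and 204, 205 and 204 CPM in RNA-Best libraries. The values within each group were nearly equal, and the log2 fold change was -0.28 (SE 0.03, edgeR adjusted p = 1.19e-09). *Psmc6* did not pass the test. It had 164, 159 and 156 CPM in Fresh and 145, 149 and 167 CPM in RNA-Best, where RNA-Best 3 exceeded every Fresh library, and a log2 fold change of -0.04 (edgeR adjusted p = 0.361). Without RNA-Best replicate 3 it passed at -0.12, and without RNA-Best replicate 1 its sign turned, at 0.0050. It also passed as lower with the offset for GC content, at -0.27, and with no filter on low counts, at -0.09, so that its call depends on the setting.

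Among the scaffold and receptor genes of the base, directions differed. *Psmd1*, a large scaffold subunit on chromosome 1 from 86064387 to 86139151, was higher in RNA-Best, with 178, 180.4 and 173 CPM in Fresh and 190.0, 187 and 206 CPM in RNA-Best. The groups did not overlap, but RNA-Best 3 stood above the other libraries, and the call was lost without it, at 0.09 (with it, log2 fold change 0.14, SE 0.03, edgeR adjusted p = 7.71e-04). With an offset for exonic length or GC content the call was lost too. *Psmd2*, the other scaffold, fell by 10.3%. *Psmd4*, a receptor for ubiquitin chains, had 109.8, 111 and 117 CPM in Fresh and 93.0, 92.2 and 98.6 CPM in RNA-Best, a log2 fold change of -0.23 (SE 0.04, edgeR adjusted p = 5.65e-06).

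All 8 genes of the lid fell, with a median log2 fold change of -0.17 and a range from -0.33 to -0.12. *Psmd13* marked the lower end, with 205, 200.3 and 214 CPM in Fresh and 160.0, 155 and 172 CPM in RNA-Best (edgeR adjusted p = 1.32e-09). Its groups were well apart. *Psmd11* marked the upper end, with 111, 113 and 108 CPM and 98.5, 101 and 106 CPM (edgeR adjusted p = 0.0096), and its call was lost without RNA-Best replicate 1, at -0.09. *Psmd14*, the deubiquitinase that releases the ubiquitin chain, fell by 8.58%. In *Psmd7*, its partner, RNA-Best 2 lay within the Fresh range, and the call was lost without Fresh replicate 3, RNA-Best replicate 1 or RNA-Best replicate 3, at -0.11, -0.08 and -0.12 (over all libraries -0.13, edgeR adjusted p = 0.0203). *Psmd2*, *Psmd7* and *Psmd14* were named after their values were seen.

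The balance between core and cap was computed within each library. The summed CPM of the 17 subunits of the 19S particle, divided by that of the 14 constitutive core subunits, was 1.16, 1.17 and 1.15 in the Fresh libraries and 1.29, 1.26 and 1.29 in the RNA-Best libraries. The summed CPM of the beta ring, divided by that of the alpha ring, was 1.17, 1.17 and 1.16 in Fresh and 1.11, 1.08 and 1.09 in RNA-Best. Neither ratio overlapped between the groups. Both are ratios of counts, not adjusted for exonic length, and are given as a description. With the offset for exonic length, median log2 fold changes were -0.18 in the alpha ring and -0.29 in the beta ring. They were -0.09 in the ATPases, -0.17 in the other genes of the base and -0.18 in the lid.

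Assembly factors were mostly lower in RNA-Best as well, with 6 of the 7 tested passing as lower. *Psmd10*, known as gankyrin and a chaperone of the base, had 36.0, 36.8 and 36.1 CPM in Fresh and 29.9, 28.4 and 29.0 CPM in RNA-Best, a log2 fold change of -0.32 (SE 0.06, edgeR adjusted p = 1.61e-05). *Psmd5*, a further chaperone of the base, had the smallest change of its group at -0.19, with 89.8, 91.1 and 92.0 CPM against 77.5, 78.6 and 82.0 CPM. Among the chaperones of the alpha ring, *Psmg3* had 17.4, 17.8 and 20.3 CPM in Fresh and 13.9, 12.0 and 14.5 CPM in RNA-Best and fell by 23.4% (log2 fold change -0.39, SE 0.09, edgeR adjusted p = 2.71e-04). RNA-Best values of *Psmg3* were all below the Fresh ones. *Psmg4* was measured at 10.9, 11.2 and 10.9 CPM and 9.73, 11.0 and 9.04 CPM, with overlapping groups, and its log2 fold change of -0.19 did not pass (edgeR adjusted p = 0.100). *Psmg1* and *Psmg2* lay at -0.38 and -0.19, and the call of *Psmg2* did not hold with every single library left out.

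The alternative caps did not move alike. *Psme1* and *Psme2* encode the PA28 ring that interferon induces and are neighbours on chromosome 14. *Psme1* had 388, 395 and 404 CPM in Fresh and 330.2, 328 and 339 CPM in RNA-Best, a log2 fold change of -0.25 (SE 0.03, edgeR adjusted p = 5.43e-09). *Psme2* had 273, 263 and 291 CPM and 201, 199 and 205 CPM, with the RNA-Best libraries close together, and a log2 fold change of -0.44 (SE 0.03, edgeR adjusted p = 4.66e-13). The ratio of *Psme1* to *Psme2* was 1.44 ± 0.0573 in Fresh and 1.65 ± 0.0064 in RNA-Best (SD, n = 3). *Psme2b*, a copy of *Psme2* on chromosome 11, had 14.9, 13.5 and 14.9 CPM and 10.5, 10.9 and 12.5 CPM and fell by 19.6% (edgeR adjusted p = 0.0045), a call lost without RNA-Best replicate 1, at -0.25. Its counts held parts of counts, so that reads of *Psme2* and its copy may not be separable.

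*Psme4* encodes PA200, a single large chain that caps the core in the nucleus, and was the gene with the highest log2 fold change of all. It lies on chromosome 11 from 30771726 to 30880361 and had 110.2, 109 and 108 CPM in Fresh and 129, 126 and 121 CPM in RNA-Best libraries. Every RNA-Best library exceeded every Fresh library, and the log2 fold change was 0.19 (SE 0.04, edgeR adjusted p = 2.38e-05). With the offset for exonic length it was -0.01 and did not pass. *Psme3*, the nuclear PA28 gamma, had 183, 185 and 184 CPM in Fresh and 168, 166 and 166 CPM in RNA-Best, with hardly any spread within groups and a log2 fold change of -0.14 (edgeR adjusted p = 2.50e-04). *Psmf1*, the regulator PI31, had 122, 125 and 123 CPM and 117, 114 and 113 CPM and a log2 fold change of -0.10 (edgeR adjusted p = 0.0139), and its call was lost without Fresh replicate 2 or RNA-Best replicate 3, at -0.09 and -0.09. It was also lost after thinning, at -0.04, and with DESeq2's Wald test.

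Exonic length moved with the fold change, in the proteasome genes as in all tested genes. Across the 45 proteasome genes, Spearman's coefficient between the log2 fold change and exonic length was 0.391, and across 14689 tested genes it was 0.522, both as descriptions across genes that share libraries. The median exonic length was 2800 bases in proteasome genes and 3924 bases in all tested genes. Up to 2000 bases, the median log2 fold change was -0.30 in 15 proteasome genes and -0.20 in all tested genes. Over 3000 and up to 5000 bases, 9 of 10 proteasome genes were lower, against 25.8% of all tested genes, with medians of -0.29 and -0.04. Over 5000 bases, 5 of 7 were lower, against 8.28%, and the medians were -0.11 and 0.17. When genes were divided into 10 equal classes by length, 38 of the 45 proteasome genes lay below the median of their own class and 24 below its lower quartile. The others were *Psmb2*, *Psmc1*, *Psmc6*, *Psmd7*, *Psme4*, *Psmg2* and *Psmg4*.

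**Figure D4:**
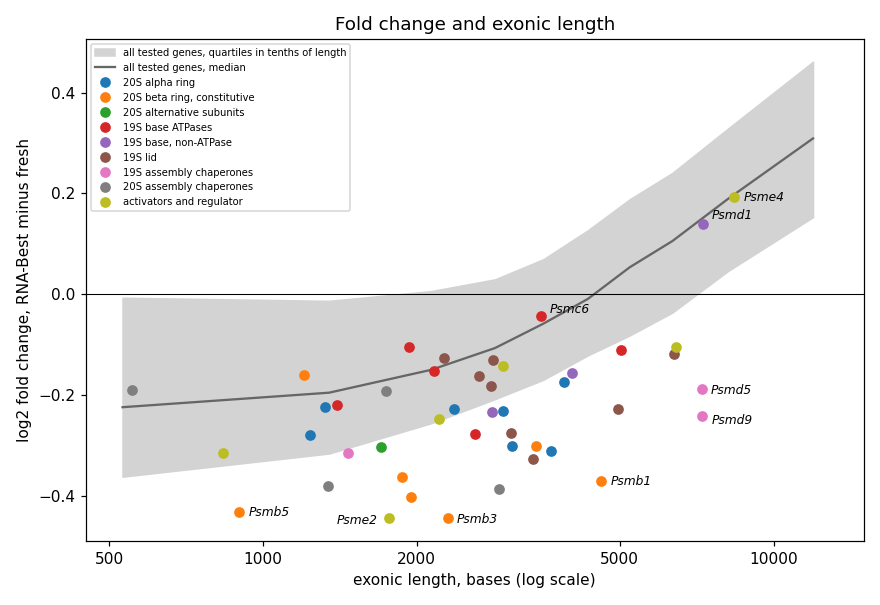
Log2 fold change, RNA-Best minus Fresh, on the y axis against exonic length in bases on a logarithmic x axis. Points are the 45 proteasome genes by role, the line is the median and the band the quartiles of all tested genes in 10 classes of length. Most points lie under the line, 24 of them under the band, while *Psme4* and *Psmd1* lie near the line at its long end.

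With an offset for exonic length in the fit, 32 proteasome genes remained lower and 0 were higher, where 40.8% of all tested genes passed, 25.2% as lower and 15.6% as higher. Their median log2 fold change was -0.18, against -0.04 over all tested genes. Both proteasome genes that had been higher, *Psmd1* and *Psme4*, came to -0.02 and -0.01. With an offset for the longest transcript in its place, *Psmd1* still passed as higher, at 0.13, and 30 genes were lower, where 3469 of the 14736 tested genes were lower and 2081 higher. With the offset for exonic length, 6 of 7 genes of the beta ring remained lower and 6 of 8 of the lid, but 3 of 6 of the ATPases. The values that follow are from the same offset. The chaperones *Psmd5* and *Psmd9* went from -0.19 and -0.24 to -0.34 and -0.40, and *Psmd11* and *Psmf1* from -0.12 and -0.10 to -0.24 and -0.23. *Psmd9* shares 1849 exonic bases with an opposite-strand noncoding gene, so that both its length and its counts are uncertain. The 13 genes that did not pass with the offset were *Psma5*, *Psmb2*, *Psmb10*, *Psmc1*, *Psmc4*, *Psmc6*, *Psmd1*, *Psmd7*, *Psmd14*, *Psmg2*, *Psmg4*, *Psme2b* and *Psme4*. With an offset for GC content, 39 genes were lower and 0 higher, where 47.4% of all tested genes passed, 26.0% as lower and 21.4% as higher. After thinning all libraries to the depth of the shallowest one, 32 were lower and 2 higher, where 40.4% of all genes then tested passed, 19.4% as lower and 21.0% as higher. What makes the fold change move with length was not tested.

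**Figure D5:**
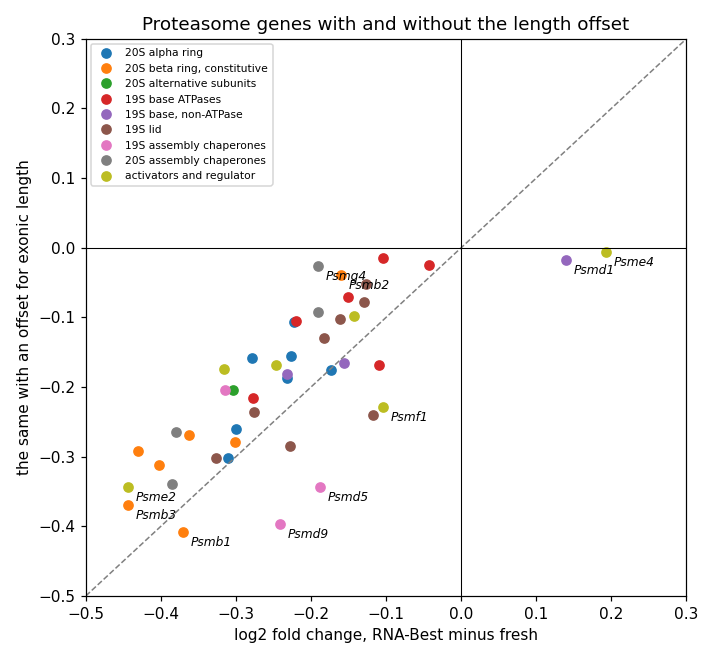
Log2 fold change of the 45 tested proteasome genes with an offset for exonic length (y axis) against the value without it (x axis), coloured by role, with the dashed line of equality. *Psme4* and *Psmd1* move from 0.19 and 0.14 to -0.01 and -0.02, most short genes move towards 0, and *Psmd5*, *Psmd9*, *Psmd11* and *Psmf1*, all over 5000 bases long, move away from it.

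Partners of the proteasome with other symbols were compared by lists that were drawn up from their known roles. Of 12 direct partners, 6 fell and 3 rose, with a median log2 fold change of -0.13. Here and in the lists that follow, counts stand against 24.8% lower and 26.0% higher among all tested genes. The lowest partner was *Pomp*, the maturation factor of the core, with 114, 107 and 119 CPM in Fresh and 86.7, 83.7 and 96.3 CPM in RNA-Best (log2 fold change -0.32, edgeR adjusted p = 3.15e-07). The highest partner was *Ipo9*, an importer of nuclear proteins, with 243, 240.0 and 244 CPM and 285, 269.7 and 277 CPM (log2 fold change 0.20, edgeR adjusted p = 7.55e-07). With the length offset, 8 of these partners were lower and 0 higher, against 25.2% and 15.6% of all tested genes. Of 6 ubiquitin genes and activating enzymes, 3 fell and 2 rose. They ran from *Rps27a*, a fusion of ubiquitin and a ribosomal protein, at -0.39 (edgeR adjusted p = 4.15e-13) to *Uba6*, an activating enzyme, at 0.43 (edgeR adjusted p = 2.98e-09). *Uba6* was at 0.24 with the length offset, 0.19 with the GC offset and 0.17 with the longest transcript, and passed each time.

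Shuttles that carry substrates to the proteasome and the p97 unfoldase with its adaptors had 3 of 11 lower and 3 higher, near the shares of all tested genes (24.8% and 26.0%). Among them, *Ddi2*, which cleaves Nfe2l1, was highest at 0.28 (edgeR adjusted p = 5.67e-05). This call was lost with the length offset, at 0.04, where *Ubqln1* was highest at 0.14, and with the longest transcript *Ddi2* was at -0.11. Of the 10 regulators of proteasome genes, 2 fell and 3 rose, again near the shares of all tested genes, from *Maff*, a small Maf factor, at -0.27 (edgeR adjusted p = 0.0073) to *Nfya*, a CCAAT-binding factor, at 0.23 (edgeR adjusted p = 3.97e-06). *Nfe2l1*, the factor known to raise proteasome genes when the proteasome is inhibited, had 327, 319 and 314 CPM in Fresh and 335, 336 and 343 CPM in RNA-Best and a log2 fold change of 0.08 (edgeR adjusted p = 0.0224). It is shown for that role, outside the rule for named genes and with its values known. The median log2 fold changes of the shuttles and the regulators were 0.0035 and 0.02, set beside -0.01 for all tested genes. With the length offset, 3 of the ubiquitin genes and activating enzymes were lower and 2 higher, 3 of the shuttles lower and 1 higher, and 3 of the regulators lower and 0 higher, where 25.2% of all tested genes were lower and 15.6% higher. None of the regulators that rose, *Nfe2l1* and *Nfya* among them, passed as higher with that offset.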

How the data were processed

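Bulk RNA-seq of GnRH-treated LβT2 cells was compared between 3 Fresh and 3 RNA-Best libraries. Per the labels, the authors aligned single reads with STAR 2.5.1b and counted them per gene with featureCounts 1.5.0-p1 on GRCm38. The deposited values are estimated counts, not scaled for library size, in which 9.36% to 16.3% of values lay over 0.001 from a whole number. How reads were divided and the strand setting are not given in the sources used here. Parts of counts were present in 31 of the 45 tested proteasome genes, and 12 of the 47 share exonic bases with another gene, so their values are uncertain.

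Counts were rounded and tested in R 4.3.3 with edgeR 4.0.16 (quasi-likelihood, TMM scaling, filterByExpr with a minimum count of 10) over 14736 genes, with Benjamini-Hochberg adjusted p. Standard errors (SE) of log2 fold changes come from the F statistic. Limma 3.58.1 (voom) and DESeq2 1.42.0 were alternatives, as were other filters, replicate block, thinning, single libraries left out and loess offsets (span 0.5) for exonic length or GC content. CPM use TMM-scaled totals. Lengths, positions and symbols came from GENCODE vM21 on the same assembly, which matched 46574 genes, and promoters from RefSeq. Scripts were tested on simulated data.

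Between libraries of a group, chi-square per gene was 1.08 to 1.95, and the libraries, whose values differed, were each counted. The lowest values, within RNA-Best, are close to counting error and do not show that cultures were separate. The proteasome genes and all lists were chosen with earlier results of these data known, and the promoter motifs after the values were seen. By a rule, values are given by library for the lowest and highest gene of each role, proteolytic and alternative subunits and their counterparts, caps, and genes under the filter, and of each list the lowest and highest called gene. Some genes of the lists are not reported here.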

Additional observations from a re-analysis of the deposited data

How the results depend on the processing

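The number of proteasome genes that passed was 43 in the main test, 43 with limma-voom, 43 with DESeq2 size factors, 39 with DESeq2's Wald test, 43 with counts rounded down and 44 with no filter, and between 39 and 42 with single libraries left out, of which 37 to 40 were lower. Over all genes, 7479, 7459, 7458, 5955, 7467 and 7637 passed in the same order, the last of 27250 tested genes, and 6357 to 7273 with single libraries left out, each of between 14728 and 15015 tested genes. Of the 43 calls of the main test, 35 held whichever single library was left out. The calls lost at least once were those of *Psmb10*, *Psmc1*, *Psmd1*, *Psmd7*, *Psmd11*, *Psmg2*, *Psme2b* and *Psmf1*. Against a 1.2-fold change, 1693 genes passed in all and 6 proteasome genes, all 6 lower, since that test asks for a larger change. The median log2 fold change of the proteasome genes was -0.274 with no filter, -0.181 with the length offset, -0.269 with the GC offset, -0.195 with replicate block and length offset and, with an offset for the longest transcript that was chosen after seeing the data, -0.165. With no filter the median over the genes of the main test moved to -0.0545. The cause of the other shifts was not tested.

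Deviations from the group means correlated at -0.0084, 0.0121 and -0.0077 between same-numbered libraries, and the numbers were not taken as a pairing. Under the replicate block 43 proteasome genes and 7472 genes in all passed, with a median of -0.229 for the former.

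Of 36 genes chosen by the rule for named genes, 31 kept direction and side of the threshold with DESeq2's Wald test, 29 with the GC offset, 26 with the length offset and 29 after thinning, 24 with replicate block and length offset and 10 against a 1.2-fold change. Signs turned in 6 of them. With the length offset, *Psmd1* was -0.0183 and *Psme4* -0.0063. With replicate block and length offset, *Psmd1*, *Psme4*, *Psmg4* and *Ipo9* were -0.0244, -0.0023, 0.0030 and -0.0027. With the longest transcript, *Psmc6*, *Psme4*, *Ipo9* and *Ddi2* were 0.0154, -0.0600, -0.0420 and -0.108, and without RNA-Best replicate 1 *Psmc6* was 0.0050. Its call was gained at -0.122 without RNA-Best replicate 3. The coefficient of variation of core levels per length was 57.8% in Fresh and 58.0% in RNA-Best with the longest transcript, against 47.5% and 47.2%.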

Other observations

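The count table also holds 4 pseudogenes named after the beta subunits, *Psmb5-ps*, *Psmb6-ps*, *Psmb6-ps2* and *Psmb7-ps2*. Of these, *Psmb6-ps2* passed the filter on low counts, with 1.21, 1.31 and 0.834 CPM in Fresh and 1.24, 0.609 and 1.52 CPM in RNA-Best libraries, and its log2 fold change of 0.04 did not pass the test (adjusted p = 0.919 from edgeR). Its counts held parts of counts, and its level was far under that of *Psmb6*. *Psmb5-ps*, *Psmb6-ps* and *Psmb7-ps2* had mean levels of 0.0463, 0.144 and 0.0621 CPM in Fresh libraries. Copies without a symbol of this kind were not analysed here.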
